A study of Mus musculus with 6 samples.

Results

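The nuclear-encoded respiratory chain genes were followed in 6 single-cell RNA libraries of stromal vascular cells from mouse inguinal white adipose tissue (iWAT). Members were chosen by gene name: symbols that begin with Nduf followed by a, b, c, s or v, the Sdh subunits, Uqcr, Cox4 to Cox8 and Atp5 symbols. Pseudogenes, the Ndufaf assembly factors and Cox8b, Cox7a1 and Cox4i2 were left out. The rule gave 82 gene identifiers, with 81 symbols, of 31053 in the tables. By complex these were 36 identifiers for complex I, 4 for complex II, 8 for complex III, 17 for complex IV and 17 for complex V. Ndufa4 and Ndufa4l2 were counted with complex IV.

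Male mice of genotype C57BL/6, aged 9 weeks (young) or 57 weeks (aged), were all first kept at 30 °C. The paper names 2 sources, the National Institute of Aging (C57BL/6JN) and Jackson Laboratories (C57BL/6J), without saying which age came from which. A difference of source between the ages could not be told apart from age here. Of each age, some stayed at 30 °C (TN), some spent their final 3 days in the cold at 6 °C (3D cold) and some 14 days there (14D cold). Live CD45- cells of the stromal vascular fraction were sorted, so that immune cells were depleted. Mature adipocytes were not part of that fraction. Each age and temperature was a single library, and the number of mice behind a library is not given in the sources used here. The p-values below therefore measure the spread between these libraries, with no replicates of a condition. The age and temperature tests have 2 residual degrees of freedom. They take the age effect as equal at every temperature, and their spread includes any difference in it.

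The respiratory chain sits in the inner mitochondrial membrane. Complex I takes electrons from NADH and complex II from succinate, complex III passes them to cytochrome c and complex IV to oxygen, and complex V (ATP synthase) uses the resulting proton gradient to make ATP. Most subunits are encoded in the nucleus and imported, while a small core of complexes I, III, IV and V is encoded by mitochondrial DNA. Several complex IV subunits, and the membrane ring of complex V, come in more than one isoform, and some of these mark muscle, testis or low oxygen. Thermogenic fat is rich in mitochondria, which makes the supply of these subunits of interest in iWAT exposed to cold.

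The promoters of 5 members are shown because these genes carry results below or differ in the motifs they hold. Each stretch is the 150 bases before the transcription start in RefSeq (GRCm38.p6), read 5′ to 3′ on the strand of the gene, and capitals mark a motif match. The genes were chosen after their values were seen. Atp5k encodes a small membrane subunit of complex V, and its promoter (chr5:108434400-108434549, minus strand) held the NRF1 core, with its first base 50 bases before the start. The start of Atp5k in GENCODE lies 49 bases upstream of the RefSeq start used here, inside that core. Cox6a1 encodes the broadly expressed form of a complex IV subunit, and its promoter (chr5:115348959-115349108, minus strand) held an ETS site on the opposite strand. Uqcrc1 (chr9:108936498-108936647, plus strand), a core subunit of complex III, Ndufs8 (chr19:3912775-3912924, minus strand), an iron-sulphur subunit of complex I, and Cox6b2 (chr7:4753095-4753244, minus strand), the form of a complex IV subunit first known from testis, held none of the motifs searched within these bases. In the full window of 300 bases, Uqcrc1 and Cox6a1 also matched the NRF1 core and Ndufs8 and Atp5k the ETS motif, outside the stretches shown, while Cox6b2 matched none.
Atp5k: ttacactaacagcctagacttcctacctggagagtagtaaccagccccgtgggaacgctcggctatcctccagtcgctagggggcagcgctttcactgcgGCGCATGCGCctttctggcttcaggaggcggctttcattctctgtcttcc
Cox6a1: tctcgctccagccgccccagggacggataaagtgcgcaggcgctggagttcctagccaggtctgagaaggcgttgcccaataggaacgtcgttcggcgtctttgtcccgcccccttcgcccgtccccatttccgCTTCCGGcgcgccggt
Uqcrc1: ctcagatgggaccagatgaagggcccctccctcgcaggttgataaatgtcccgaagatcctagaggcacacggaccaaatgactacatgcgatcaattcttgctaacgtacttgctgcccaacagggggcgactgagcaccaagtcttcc
Ndufs8: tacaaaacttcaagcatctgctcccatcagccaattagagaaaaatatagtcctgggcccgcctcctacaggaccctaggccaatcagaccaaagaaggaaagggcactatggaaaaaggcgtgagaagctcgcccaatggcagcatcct
Cox6b2: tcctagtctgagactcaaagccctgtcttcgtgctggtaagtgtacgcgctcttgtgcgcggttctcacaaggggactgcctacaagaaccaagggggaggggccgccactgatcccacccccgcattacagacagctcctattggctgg

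Promoters were found for 65 member genes (70 promoters) among 32851 promoters of 300 bases. The motifs were searched on both strands, each exactly as spelled. The NRF1 core, whose letters are the capitals in Atp5k, was in 7.14% of member promoters and 0.971% of all promoters. The ETS motif CCGGAAG was in 22.9% against 8.86%, and the YY1 motif AAGATGGCG in 10.0% against 1.4%. The hypoxia response element core ACGTG was in 21.4% against 19.6%. In the 250 bases before the start alone the shares were 5.71% against 0.782% for NRF1, 17.1% against 6.91% for ETS, 1.43% against 0.606% for YY1 and 18.6% against 16.6% for ACGTG. The longer window was added after the shorter one had been read. A match describes letters in these windows only.

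The libraries held between 52068837 and 88508349 UMIs (unique molecular identifiers, each a captured transcript), and 7562 to 10850 cells per library were kept. Median UMIs per kept cell were 7535 to 9639 in the young libraries and 5933.5 to 6830 in the aged, and the 14D cold library of aged mice kept 63.5% of its barcodes, against 85.0 to 90.2% elsewhere. Pairs of libraries shared 19 to 34 cell barcodes. Cells were placed in classes by marker genes, none of them a member. Dpp4 was detected in 88.8 to 96.6% of Dpp4+ fibroblasts, Icam1 in 84.5 to 93.6% of Icam1+ preadipocytes, F3 (which encodes CD142) in 70.3 to 83.7% of Cd142+ fibroblasts and Cdh5 in 93.1 to 97.3% of endothelial cells. These genes are among the markers that set the classes, so that their detection is no independent check on them. Red blood cell RNA was uneven: in endothelial cells it ran from 79.2 to 4130 CPM (counts per 1000000 UMIs) across the libraries. Dissociation genes, the early stress genes of tissue digestion, made up 15900 to 21500 CPM in Dpp4+ fibroblasts and 22300 to 31700 in Icam1+ preadipocytes.

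Of the 81 symbols, 78 passed the filter on low counts in 4 of the 5 classes and 77 in smooth muscle cells and pericytes (SMC/pericytes), where Atp5s did not. The rest were near or at 0. Cox7b2 and Cox8c had 0 UMIs in all kept cells, and a second identifier of Atp5o had 0 as well; 3 UMIs, the limit that a count of 0 allows, is 0.0069 CPM here. Cox6a2, the heart and skeletal muscle form of a complex IV subunit, had 96 UMIs in all, of which 85 lay in the few remaining immune cells.

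The members' share of all UMIs separated the cell classes. Dpp4+ fibroblasts averaged 1.21% ± 0.0261 (SD over 6 libraries), Icam1+ preadipocytes 1.3% ± 0.0727 and Cd142+ fibroblasts 1.26% ± 0.04. It was 1.98% ± 0.112 in endothelial cells, 2.11% ± 0.179 in pericytes and 2.87% ± 0.191 in smooth muscle cells. The 3 fibroblast classes overlapped each other, endothelial cells and pericytes overlapped, and smooth muscle cells lay above every other class in all 6 libraries. With mitochondrially encoded and ribosomal protein genes taken out of the total, the shares were 1.47% in Dpp4+, 1.5% in Icam1+ and 1.49% in Cd142+ fibroblasts, so that the gaps among these 3 classes narrowed and their order did not change. The limit of 10% mitochondrial UMIs per cell removed smooth muscle cells in particular, and at 20% the share in SMC/pericytes was 2.93% in place of 2.69%. With cells filtered by median absolute deviation instead it was below 2.69%, as given with the processing checks below.

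**Figure D1:**
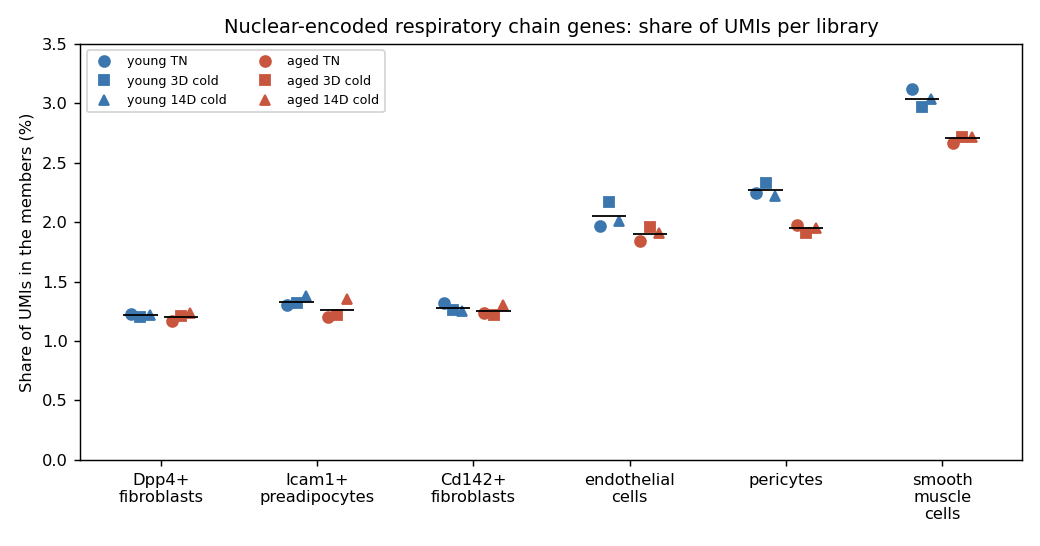
Share of all UMIs (%, y axis) that fell in the members, by cell class (x axis), with a point for each library (blue young, red aged; circle TN, square 3D cold, triangle 14D cold) and a line at the mean of each age. Smooth muscle cells lie highest, at 2.67 to 3.12%, and the young points lie above the aged points in pericytes and in smooth muscle cells.

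Differences between classes were tested on UMIs summed over the cells of a class in each library, with the library as a block (edgeR quasi-likelihood F test, Benjamini-Hochberg adjustment over all genes tested). Icam1+ preadipocytes had 47 members higher and 6 lower than Dpp4+ fibroblasts of 78 tested. Among all genes 68.9% passed, 33.7% higher and 35.1% lower. The median log2 fold change of the members was 0.171, against -0.007 over all genes. By complex, 22 of 36 complex I members were higher, 1 of 4 in complex II, 6 of 8 in complex III, 8 of 14 in complex IV and 10 of 16 in complex V. The cytosolic ribosomal protein genes moved the other way, with 79 of 87 lower and a median of -0.434, and the part of this shift in the members' count was not tested.

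The largest difference was in Ndufa4l2 (chr10:127514967-127517154, GRCm38), a paralog of the complex IV subunit Ndufa4 that is known as a target of hypoxia-inducible factor. Icam1+ preadipocytes held 44.5, 41.8 and 68.4 CPM (here and below after TMM scaling of the libraries) in the young TN, 3D cold and 14D cold libraries and 62.7, 53.2 and 68.9 CPM in the aged. Dpp4+ fibroblasts held 1.29 to 2.6 CPM. The classes did not overlap in any library, with a log2 fold change of 4.89 (SE 0.07) and an edgeR adjusted p of 1.88e-11. Ndufa4 itself differed by 0.19 (SE 0.04, edgeR adjusted p 0.00219). SMC/pericytes held 682 to 1050 CPM of Ndufa4l2 when scaled with endothelial cells. The part of RNA carried over from them in the fibroblast values of Ndufa4l2 was not tested.

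Ndufs8 came next among members over 20 CPM, at 50.5 ± 4.0 CPM in Icam1+ preadipocytes and 27.5 ± 1.93 in Dpp4+ fibroblasts (SD, 6 libraries; log2 fold change 0.87, SE 0.04). Ndufc2, an accessory subunit of complex I, followed at 0.55, then Cox8a, the broadly expressed form of its complex IV subunit, at 0.51 and Ndufb6, another accessory subunit of complex I, at 0.5. The 6 lower members were Cox7a2l, Cox6c, Ndufa6, Sdha, Ndufa2 and Ndufb11. Cox7a2l was at 188 ± 18.2 CPM in Icam1+ preadipocytes and 286 ± 23.5 in Dpp4+ fibroblasts (log2 fold change -0.61, SE 0.07, edgeR adjusted p 2.16e-05). Sdha, the flavoprotein of complex II, was lower by -0.17 (SE 0.04) while Sdhb, its iron-sulphur partner, was higher by 0.38 (SE 0.03). Atp5b, the catalytic subunit of complex V, was higher by 0.24 (SE 0.04), and Atp5a1, its partner in the catalytic head, was at 0.07 (SE 0.04, edgeR adjusted p 0.177).

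Cd142+ fibroblasts had 43 members higher and 5 lower than Dpp4+ fibroblasts, where 49.1% of all genes passed, 24.8% higher and 24.3% lower. The comparisons with Dpp4+ fibroblasts share the same Dpp4+ sums, so that their likeness is not independent. The rule for Cd142+ fibroblasts could also let in cells with Icam1+ markers, and their part was not tested. Ndufa4l2 was at 45.4 ± 8.53 CPM in Cd142+ fibroblasts, from 28.9 to 50.8, and at 1.29 to 2.59 in Dpp4+ fibroblasts (log2 fold change 4.62, SE 0.14). Ndufs8 (0.89), Ndufb6 (0.5), Ndufc2 (0.47) and Uqcrb (0.44), a small subunit of complex III, were the other leading members. Cox7a2l (-0.46), Sdhd (-0.24), Cox6c (-0.24), Sdha (-0.15) and Ndufb7 (-0.15) were lower. The count fell to 20 in equal numbers of cells thinned to 2000 UMIs and to 30 with a stricter gate, both smaller samples of a class with 198 to 434 cells per library. The share of all genes that passed in either setting is not given beside these counts.

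Endothelial cells had 54 members higher and 7 lower than Dpp4+ fibroblasts, and 76.6% of all genes passed, 37.3% higher and 39.3% lower. The members' median was 0.403, against -0.004 over all genes. Ndufa4l2 differed most (2.13, SE 0.19) but was low in both classes, at 6.02 to 13.9 CPM in endothelial cells. Among members over 20 CPM complex I led: Ndufc2 (chr7:97400003-97407802) was at 335, 394 and 427 CPM in young TN, 3D cold and 14D cold endothelial cells and at 303, 389 and 368 CPM in the aged. In Dpp4+ fibroblasts it was at 89.1 to 101 CPM, so that the classes lay far apart (log2 fold change 1.98, SE 0.08, edgeR adjusted p 2.06e-10).

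Ndufs8 (1.76), Ndufa8 (1.63), an accessory subunit of complex I, Cox5a (1.58), a regulatory subunit of complex IV, and Atp5j (1.31), a stalk subunit of complex V, also led in endothelial cells. Complex II went in both directions, with Sdhb (0.45) and Sdhd (0.26) higher and Sdhc (-0.34) and Sdha (-0.2) lower. Ndufv3 (-0.38), Cox7a2l (-0.36), Ndufa13 (-0.3), Ndufs4 (-0.18) and Atp5e (-0.18) were the other lower members. Adipocyte RNA (9 genes such as Adipoq and Plin1) stood at 512 to 2160 CPM in endothelial cells and at 7.24 to 17.5 in Dpp4+ fibroblasts, and its part in these differences was not tested.

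SMC/pericytes had 63 members higher and 6 lower than endothelial cells. Among all genes 64.5% passed, 31.2% higher and 33.2% lower, and the members' median was 0.51 against -0.031. Smooth muscle cells taken alone had 65 members higher and 5 lower than endothelial cells, with a median of 0.651, where 66.3% of all genes passed. Pericytes alone had 14 higher and 28 lower, with a median of -0.064, where 49.8% of all genes passed. With cells filtered by median absolute deviation instead, 25 members were higher and 10 lower, where 50.3% of all genes passed. All 16 genes of the tricarboxylic acid (TCA) cycle tested and all 13 mitochondrially encoded subunits were also higher in SMC/pericytes.

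Ndufa4l2 again differed most, at 917, 914 and 1050 CPM in young and 734, 779 and 682 CPM in aged SMC/pericytes, and at 6.49 to 15.2 CPM in endothelial cells (log2 fold change 6.4, SE 0.16, edgeR adjusted p 1.16e-13). Rgs5, a pericyte marker, was detected in 13.1 to 18.4% of endothelial cells, and its part in the endothelial value was not tested. Pericytes alone (6.62) and smooth muscle cells alone (6.35) gave the same direction. Cox6b2 was at 21.4 to 48.9 CPM in SMC/pericytes and 2.56 to 8.11 CPM in endothelial cells (log2 fold change 2.63, SE 0.19). Sdhc, a membrane anchor of complex II, was at 157 ± 26.1 CPM against 54.3 ± 6.37 (1.54, SE 0.11), and Cox8a at 1690 ± 201 against 663 ± 56.3 (1.34, SE 0.08). Atp5a1 (1.0), a catalytic-head subunit of complex V, was also among the leading members.

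Members that were lower in SMC/pericytes were Ndufc2 (-1.2), Ndufa8 (-1.12), Ndufa4 (-0.81), Atp5j (-0.5), Cox7a2l (-0.48) and Cox5a (-0.32). Ndufc2 was at 174 ± 16.0 CPM against 402 ± 49.2 CPM in endothelial cells. Ndufc2, Ndufa8, Cox5a and Atp5j are thus members that led in endothelial cells against Dpp4+ fibroblasts too; the comparisons share the endothelial cells, counted in the same libraries.

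Smooth muscle cells were next compared with pericytes of the same libraries, a comparison added after seeing the data. Of 77 members, 69 were higher and 2 lower in smooth muscle cells, where 48.5% of all genes passed, 24.8% higher and 23.8% lower. All 7 complex I core subunits, all 8 complex III members and all 15 complex V members tested were higher. The median was 0.67, against -0.017 over all genes, and 74 of 83 cytosolic ribosomal protein genes were higher as well, with a median of 0.494. The median-deviation filter left 37 members past the threshold, against 35.7% of all genes.

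Ndufa4 showed the largest difference between the mural classes. It was at 480, 343 and 312 CPM in young TN, 3D cold and 14D cold smooth muscle cells and at 412, 318 and 374 CPM in the aged. Pericytes held 163, 112 and 144 CPM in young and 68.1, 84.7 and 40.7 CPM in aged libraries, from 6 to 54 UMIs a library. The classes did not overlap (log2 fold change 1.83, SE 0.16, edgeR adjusted p 2.54e-09). Sdhc (1.35), Cox8a (1.15), Uqcr11 (1.15), a small complex III subunit, and Atp5k (1.15) followed, and Sdhd did not pass (-0.08, SE 0.14). The lower members were Ndufs4 (-0.65, SE 0.12), an accessory subunit needed for complex I assembly, and Ndufa4l2 (-0.32, SE 0.09). Ndufa4l2 was thus lower, and Ndufa4 higher, in smooth muscle cells than in pericytes; with no filter on low counts the Ndufa4l2 difference was -0.22 and missed the threshold (edgeR adjusted p 0.074), and without the aged TN library it was -0.23 (edgeR adjusted p 0.0681).

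**Figure D2:**
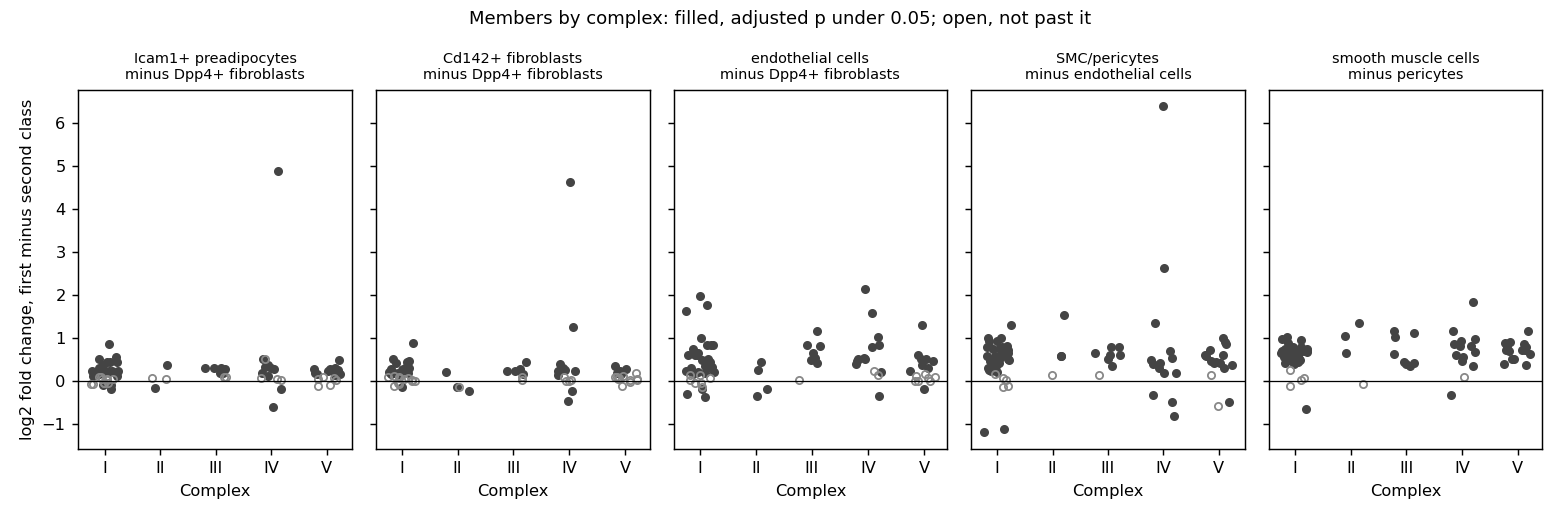
The log2 fold change (y axis) of each member between pairs of cell classes, in columns for complexes I to V (x axis), with a panel for each comparison. Filled points passed an adjusted p of 0.05 and open points did not. Most filled points lie above 0 in every panel, and the point far above the rest in the Icam1+, Cd142+ and SMC/pericyte panels is Ndufa4l2.

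Other isoforms of the chain were compared in the same way. Among the membrane ring genes of complex V, Atp5g1 was higher in Icam1+ preadipocytes than in Dpp4+ fibroblasts (0.49, SE 0.04) and Atp5g3 was higher (0.28, SE 0.04), while Atp5g2 was at -0.09 (SE 0.05, edgeR adjusted p 0.152). Cox7a2 was higher in endothelial cells than in Dpp4+ fibroblasts (1.03, SE 0.06). Cox7a2l, a member by its gene name, was lower, and whether it serves as an isoform of Cox7a2 was not tested. Cox6b1, the broadly expressed partner of Cox6b2, differed by 0.19 (SE 0.07) between SMC/pericytes and endothelial cells, and Cox4i1 by 0.31 (SE 0.07).

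The isoforms that the rule left out were also measured. Cox4i2, the oxygen-regulated partner of Cox4i1, differed by 5.89 between SMC/pericytes and endothelial cells and by 4.48 between Icam1+ preadipocytes and Dpp4+ fibroblasts, and was lower in smooth muscle cells than in pericytes (-1.09). These differences are given as sizes without a test result. The part of RNA carried over from SMC/pericytes in the Icam1+ value of Cox4i2 was not tested. Cox8b, a thermogenic and muscle form, was at 51.4 to 118 CPM in Icam1+ preadipocytes and 0.706 to 2.77 CPM in Dpp4+ fibroblasts. Adipocyte RNA was at 37.4 to 100 raw CPM in the former and 7.24 to 17.5 in the latter, and its part was not tested. Cyc1, the cytochrome c1 gene of complex III whose name the rule does not match, was higher in Icam1+ preadipocytes than in Dpp4+ fibroblasts (0.45). The 13 mitochondrially encoded subunits were higher than in Dpp4+ fibroblasts in both other fibroblast classes, with medians of 0.614 in the Icam1+ and 0.694 in the Cd142+ class, and 12 of 13 were higher in endothelial cells.

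**Figure D3:**
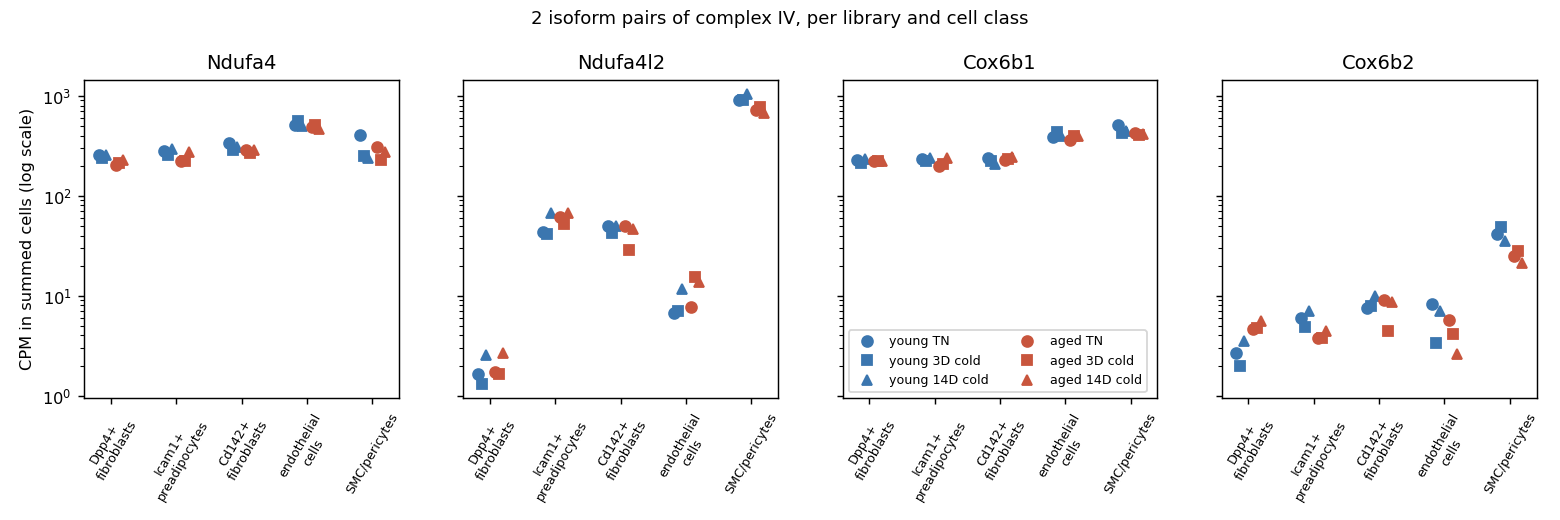
CPM on a log scale (y axis) of Ndufa4, Ndufa4l2, Cox6b1 and Cox6b2 in each of 5 cell classes (x axis; pericytes and smooth muscle cells are merged), a point for each library in the colours and shapes of the plot of UMI shares. Ndufa4l2 spans 1.31 to 1040 CPM across these 5 classes, and Ndufa4 stays between 205 and 564 CPM.

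The age comparison asked which members differed between the 3 aged and 3 young libraries of a class with temperature as a term. In Dpp4+ fibroblasts, 1 member rose and 5 fell of 78, where 18.2% of all genes passed, 8.95% higher and 9.26% lower. The members' median was -0.033. Ndufa3, Ndufc1 and Ndufv3 of complex I, Ndufa4 of complex IV and Atp5e of complex V fell by 0.21 to 0.26 on the log2 scale. Ndufa3, an accessory subunit in the membrane arm, was at 143, 127 and 119 CPM in the young TN, 3D cold and 14D cold libraries and at 118, 100 and 106 CPM in the aged (-0.26, SE 0.06, edgeR adjusted p 0.0114). Ndufc1, also of the membrane arm, was at 117, 101 and 109 CPM in young and 89.9, 88.2 and 93.5 CPM in aged libraries (-0.26, SE 0.06, edgeR adjusted p 0.0112). The ages did not overlap for either gene.

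Atp5e, a subunit of the central stalk of complex V, was at 500 ± 51.2 CPM in young and 428 ± 34.0 in aged Dpp4+ fibroblasts (SD, n = 3 libraries each), and there the ages overlapped. Cox6b2 was the member that rose (log2 fold change 0.88, SE 0.15, edgeR adjusted p 0.00176), at 2.64, 1.99 and 3.54 CPM in young and 4.61, 4.7 and 5.55 CPM in aged libraries, from 67 to 135 UMIs a library. The count of members was 2 without the young 3D cold library or without the aged 3D cold library, and 1 with no temperature term. Among the mitochondrially encoded subunits 6 of 13 rose with age in Dpp4+ fibroblasts, with a median of 0.204. Their sum was 15600 to 21900 raw CPM in young and 19600 to 25000 in aged libraries, lowest in young TN. The part of a library-wide offset was not tested.

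In Icam1+ preadipocytes 6 members fell with age and none rose, where 13.7% of all genes passed, 7.44% higher and 6.27% lower. The median was -0.087, with 17 of 78 members above 0, against 6514 of 13246 genes. Ndufa3, Ndufv3 and Ndufc1 were again among them, in cells of the same libraries. Ndufa3 was at 141, 115 and 113 CPM in young and 107, 90.6 and 98.5 CPM in aged preadipocytes (-0.31, SE 0.07, edgeR adjusted p 0.0177). Ndufv3, in the NADH-binding arm of complex I, fell by 0.28 (SE 0.07) from 145 ± 14.7 to 119 ± 7.58 CPM. The others were Uqcrq (-0.26), a small subunit of complex III, Ndufs3 (-0.22), a core subunit of complex I, and Cox6b2 (-0.55).

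Leaving out a library also took its partner of the same temperature out of the age contrast, with fewer residual degrees of freedom. For the age calls in every class the exclusions therefore cannot show which library a call rests on. In Icam1+ preadipocytes the count was 0 without the young 3D cold library or the aged 3D cold library and 2 without the young TN or the aged TN library. It was 0 with no temperature term, and 2 in DESeq2. In equal numbers of cells thinned to 2000 UMIs it was 1, beside a lower depth in every aged library. Mitochondrial ribosomal proteins, which make the mitochondrially encoded subunits, had 17 of 77 lower with age in these cells and none higher, with a median of -0.197. Ppargc1a, a coactivator of mitochondrial genes, rose by 1.29 from 2.09 to 4.78 CPM in young libraries to 5.15 to 9.41 CPM in aged ones (edgeR adjusted p 0.00442).

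Cox6b2 was also the member whose age effect differed between these classes. It was at 6.03, 4.81 and 6.98 CPM in young Icam1+ preadipocytes and 3.76, 3.79 and 4.47 CPM in aged, from 58 to 170 UMIs a library, and so ran opposite to Dpp4+ fibroblasts. Smooth muscle cells held 46.5 to 53.1 CPM in young and 14.9 to 22.6 CPM in aged libraries. Pericytes held 11.9 to 41.0 CPM in young and 37.3 to 48.9 CPM in aged libraries. The part of RNA carried over from either in the fibroblast values of Cox6b2 was not tested. The interaction was -1.42 (SE 0.17, edgeR adjusted p 0.00221), where 2.37% of all genes had an age effect that differed. It was past the threshold with each library left out, and missed it in equal numbers of cells thinned to 2000 UMIs. Between endothelial cells and Dpp4+ fibroblasts no member's age effect passed (0.868% of all genes did), and Cox6b2 and Atp5g2 had the smallest p.

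In Cd142+ fibroblasts Ndufa10, an accessory subunit of complex I, fell by 0.43 (SE 0.12, edgeR adjusted p 0.0446), where 5.66% of all genes passed. It was at 62.8, 68.2 and 66.4 CPM in young and 48.1, 54.1 and 43.4 CPM in aged libraries. The ages did not overlap, but the call was lost in DESeq2 (adjusted p 0.807) and with the stricter gate. It was also lost on leaving out either TN library or either 14D cold library. Both exclusions at a temperature drop the same pair from the age contrast and are not separate checks. In endothelial cells no member passed by edgeR or by DESeq2, where 0.65% of all genes passed by edgeR. At an unadjusted p under 0.05 in edgeR there were 5 members, and the share of all genes at that limit is not given. The smallest p values belonged to Ndufb5, at 169, 186 and 195 CPM in young and 149, 148 and 157 CPM in aged libraries, and to Ndufa3, whose ages overlapped.

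In SMC/pericytes 2 members fell with age, where 2.08% of all genes passed, but the whole set lay to one side. The median was -0.171, with 75 of 77 members below 0, against a median of 0.005 over all genes. All 3 aged libraries lay below all 3 young libraries for 27 members (35.1%), against 8.15% of all genes, and for no member did they lie above. The members' share of UMIs was 2.25, 2.33 and 2.22% in young and 1.98, 1.91 and 1.95% in aged pericytes, in the order TN, 3D cold and 14D cold. It was 3.12, 2.97 and 3.04% in young and 2.67, 2.72 and 2.72% in aged smooth muscle cells. The ages thus did not overlap in either class, nor at the 20% mitochondrial limit, with median-deviation limits, with the stricter gate or without mitochondrial and ribosomal protein genes in the total. These shares are a description with no test, since the members are no replicates of one another. Median UMIs per cell were lower in every aged library, at 4556 to 4668 against 5135.5 to 6689.5 in SMC/pericytes. Dissociation genes were at 19200 to 21100 CPM in aged and 17800 to 19000 CPM in young SMC/pericytes, and at 14100 to 18800 CPM in aged and 16500 to 18200 CPM in young smooth muscle cells alone. In pericytes alone these genes were at 29200, 32700 and 25300 CPM in aged and 27300, 24000 and 17400 CPM in young libraries (TN, 3D cold and 14D cold). The part of either in the age shift was not tested.

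Ndufa4l2 fell by 0.38 (SE 0.09, edgeR adjusted p 0.0337) in SMC/pericytes, from 902, 907 and 1040 CPM in young to 724, 774 and 680 CPM in aged libraries. In smooth muscle cells alone it fell by 0.46 (edgeR adjusted p 0.00196), and in pericytes alone the difference was -0.15 (edgeR adjusted p 0.781). Cox6b2 fell by 0.74 (SE 0.18, edgeR adjusted p 0.0326), from 41.1, 48.6 and 35.5 CPM to 25.2, 27.8 and 21.3 CPM. In smooth muscle cells alone it fell by 1.23, from 46.5 to 53.1 CPM in young to 14.9 to 22.6 CPM in aged libraries. In pericytes the difference was 0.77 (edgeR adjusted p 0.485) on 3 to 18 UMIs a library. Both calls were lost in DESeq2, and the count of members was 0 without any 1 of 5 libraries and 1 without the aged 14D cold library. At the 20% mitochondrial limit 12 members fell, against 5.56% of all genes, and in pericytes alone Ndufa4 fell by 1.02 (edgeR adjusted p 0.0126). The mitochondrially encoded subunits had a median of 0.001 with age and none was called. Cells above the mitochondrial limit were dropped, which caps the share of these subunits in every kept cell. Whether they shift with age in this class therefore could not be judged, nor set against the members. Assembly factors had a median of -0.192 and mitochondrial ribosomal proteins -0.171.

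**Figure D4:**
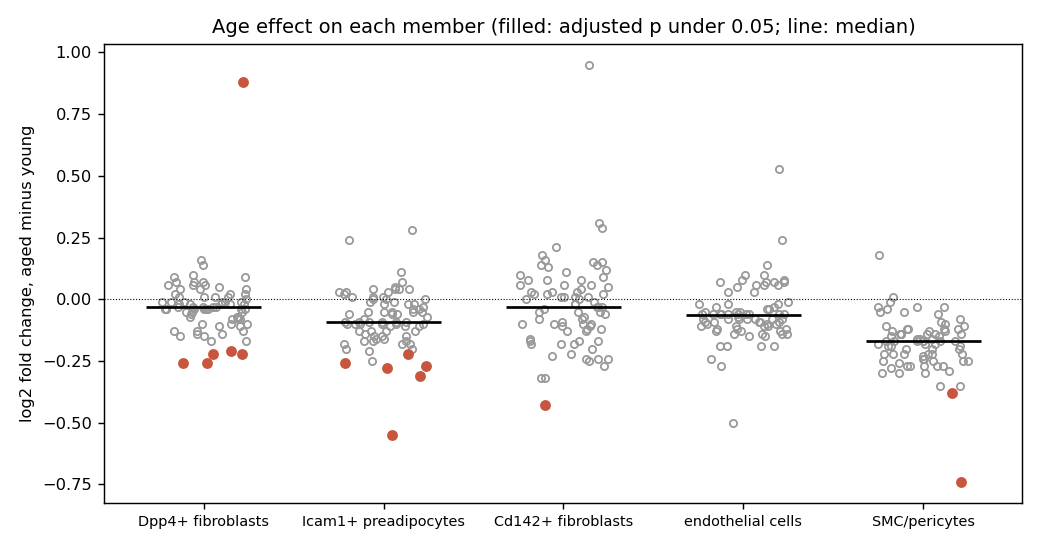
Age effect on each member as the log2 fold change of aged minus young libraries (y axis) in each cell class (x axis), with a black line at the median of the members and filled points past an adjusted p of 0.05. The medians lie between -0.171 in SMC/pericytes and -0.027 in Cd142+ fibroblasts.

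The temperature comparison tested both cold groups against TN with age as a term. In Dpp4+ fibroblasts no member passed by edgeR or DESeq2, although 8.59% of all genes did by edgeR. At an unadjusted p under 0.05 there were 13 members, and the share of all genes at that looser limit is not given. Ndufv1, the NADH-binding subunit of complex I, had the smallest p, at 56.0, 66.5 and 68.4 CPM in young and 58.4, 74.6 and 67.4 CPM in aged TN, 3D cold and 14D cold libraries (log2 fold changes 0.3 and 0.25, edgeR adjusted p 0.0531). Both TN libraries lay below all 4 cold libraries. Leaving out any library left its temperature group with a single library. Counts of members from those fits, given with the processing checks below, are therefore not set against the 8.59%. Among the mitochondrially encoded subunits 8 of 13 were called higher and 2 lower in cold, with a median of 0.355 at 3D, against 0.005 for the members. Their sum was 15600, 21900 and 20000 raw CPM in young and 19600, 25000 and 24000 in aged libraries. Over all kept cells the median mitochondrial share was also lowest at TN in each age. It was 1.95, 2.68 and 2.50% in young and 2.58, 2.96 and 2.85% in aged libraries. The part of a library-wide offset was not tested.

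In Icam1+ preadipocytes 1 member, Ndufa4l2, passed (edgeR adjusted p 0.0457), where 5.34% of all genes did. It was at 43.9, 41.2 and 67.4 CPM in young and 61.5, 51.9 and 67.6 CPM in aged TN, 3D cold and 14D cold libraries, which gave -0.17 at 3D and 0.38 at 14D. The 14D cold libraries were thus the highest of each age and the 3D cold libraries the lowest, while the groups overlapped across ages. The count was 0 without the young or the aged 3D cold library and 3 without the young TN library. The members' median was 0.025 at 3D and 0.155 at 14D, with 72 of 78 above 0 at 14D, against 6500 of 13246 genes. Of the isoforms outside the rule, Cox4i2 gave log2 fold changes of 1.03 and 1.3 and Cox8b of 0.96 and 0.5 in the 3D and 14D cold groups. These are sizes only, given without a test result. Adipocyte RNA in these cells was 46.8, 48.9 and 64.3 raw CPM in young and 37.4, 71.7 and 100 in aged libraries. Its part in these values was not tested.

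Cd142+ fibroblasts had no member past the threshold by edgeR or DESeq2, where 1.15% of all genes passed it by edgeR. Atp5k and Uqcrq had the smallest p. At an unadjusted p under 0.05 there were 5 members, and the share of all genes at that limit is not given. Endothelial cells had no member past the threshold either, by edgeR or DESeq2, where 0.727% of all genes passed it by edgeR. There 16 members had an unadjusted p under 0.05, again with no share of all genes beside them. The members' median in endothelial cells was 0.155 at 3D and 0.071 at 14D, with 69 of 78 above 0 at 3D, against 5165 of 10456 genes. Cox7b, a small complex IV subunit, was at 189, 249 and 214 CPM in young and 181, 235 and 230 CPM in aged endothelial cells, so that both TN libraries lay below all 4 cold libraries. Ndufb8 had the next smallest p, at 175, 218 and 193 CPM in young and 151, 207 and 180 CPM in aged libraries. Adipocyte RNA in endothelial cells was 1020, 1330 and 512 CPM in young and 953, 2160 and 1480 in aged libraries, highest at 3D in both ages. Red blood cell RNA in the same cells was 202, 4130 and 79.2 CPM in young and 1240, 1800 and 585 CPM in aged libraries, also highest at 3D in both ages, and the part of either was not tested.

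In SMC/pericytes Ndufa4 and Atp5k fell in cold, where 3.84% of all genes passed. The members' median was -0.133 at 3D and -0.117 at 14D, against 0.006 and 0.008 over all genes. Ndufa4 was at 409, 251 and 241 CPM in young and 308, 228 and 277 CPM in aged TN, 3D cold and 14D cold libraries (log2 fold changes -0.57 and -0.48, edgeR adjusted p 0.0309). Atp5k was at 413, 361 and 292 CPM in young and 361, 281 and 243 CPM in aged libraries (-0.27 and -0.54, edgeR adjusted p 0.0355). Smooth muscle cells made up 85.0 and 70.4% of the class in the young and aged TN libraries and 56.9 to 64.4% in the cold libraries. Ndufa4 and Atp5k were higher in smooth muscle cells than in pericytes. The part of this mix in the cold values was not tested, and each part alone holds fewer cells than the class. Within smooth muscle cells alone Ndufa4 gave -0.41 and -0.38 (edgeR adjusted p 0.0848) and Atp5k -0.16 and -0.39 (edgeR adjusted p 0.189), and no member passed there or in pericytes alone. No member passed in DESeq2, nor without the young TN library, the young 3D cold library or the aged 3D cold library, and 1 passed without the young 14D cold or the aged TN library.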

How the data were processed

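The authors sequenced 10x Genomics 3′ libraries of sorted CD45- stromal vascular cells, aligned reads to mm10 with Cell Ranger 3.1.0 and deposited UMI counts per gene and cell barcode; per the file headers and labels no other normalization was applied. A UMI sits near the 3′ end of a transcript, so levels were not compared between genes.

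Cells with 1000 to 7000 genes and at most 10% mitochondrial UMIs were kept. Classes were gated on detected markers (at least 3 to 6 of a list, by class). Dpp4+ and Icam1+ cells needed a lead of 2 over each other's list and fewer than 5 Cd142+ markers. Cd142+ fibroblasts needed fewer than 5 Dpp4+ markers and a larger share of their own list than of the Icam1+ list, with no such lead. Cells that reached the limit of another broad class (3 to 6 markers, by class) were dropped, which stood in for a doublet caller. Cells with fewer markers of another class were kept. UMIs were summed per library and class, filtered with filterByExpr, scaled by TMM and tested in edgeR 4.0.16 (R 4.3.3), with DESeq2 1.42.0 as an alternative, and adjusted over all genes tested. Each SE was taken from the size of the log2 fold change and the F statistic. For temperature, a member's direction is that of the contrast that is larger in size. The scripts were tested on simulated counts; in most of the comparisons simulated, temperature in Icam1+ preadipocytes among them, more than the nominal share of calls was false. The members, lists and tests were chosen with earlier results of these data known. Named members were up to 3 (age, temperature) or 5 (classes) per direction with the largest fold change over 20 CPM, or the 2 smallest p values, plus isoform pairs, complex II and core subunits and a few single members and other genes fixed by name; other lists are given as counts, and lower members and a few called below 20 CPM were named after their values were seen. Gene positions are those of GENCODE for GRCm38. Intervals and limits cover counting error only. One member result is not reported here.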

Additional observations from a re-analysis of the deposited data

Results flagged for a closer look

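The age effect on Cox6b2 differed between Icam1+ preadipocytes and Dpp4+ fibroblasts by -1.42 on the log2 scale (edgeR interaction term, SE 0.17, adjusted p 0.00221), since it was higher in the 3 aged Dpp4+ libraries and lower in the 3 aged Icam1+ libraries than in the young. It is a low-count gene, with 611 UMIs in Dpp4+ fibroblasts and 729 in Icam1+ preadipocytes over the 6 libraries. In equal numbers of cells thinned to 2000 UMIs no member passed this test. The part of RNA carried over from SMC/pericytes in the Cox6b2 values was not tested.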

How the results depend on the processing

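Size factors, filters, gates, DESeq2 and single-library exclusions were varied, and the limit of 20% mitochondrial UMIs, the split of SMC/pericytes and the comparison of smooth muscle cells with pericytes were added after seeing the data. No paired analysis was possible because the replicate numbers pair no libraries: each age and temperature is a single library, and all groups share only number 1. The library block of the class comparisons and the temperature or age terms belong to the tests themselves. Counts of members under the alternatives, here and above, stand without the share of all genes called in the same setting unless it is printed beside them. Such counts therefore cannot be read against that share. Of the values of single members under these alternatives, 849 kept their direction and side of the threshold, 126 lost the call, 8 gained it and 2 reversed: Cox6b2 with age in SMC/pericytes was 0.33 under the median absolute deviation limits and 0.77 in pericytes alone; the cause was not tested.

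Counts of members called with age were 0 (DESeq2, thinned cells, stricter gate, 20% limit, no temperature term) or 2 (no low-count filter) in Cd142+ fibroblasts and 1 with no temperature term in Dpp4+ fibroblasts. They were 2 (DESeq2), 1 (thinned) and 0 (no temperature term) in Icam1+ preadipocytes. In SMC/pericytes they were 0 (DESeq2, median deviation, thinned, no temperature term), 12 (20% limit) and 1 (pericytes only). Leaving out each library gave 2 to 4 in Dpp4+, 0 to 4 in Icam1+ and 0 to 1 in SMC/pericytes.

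For temperature they were 1 (thinned) in Cd142+ fibroblasts; 4 (no low-count filter) and 1 (median deviation) in Dpp4+ fibroblasts; 2 (DESeq2, no low-count filter, stricter gate) and 0 (median deviation, thinned, no age term) in Icam1+ preadipocytes. In SMC/pericytes they were 0 (DESeq2, median deviation, thinned, no age term, either part alone) and 1 (20% limit). Leaving out each library gave 0 to 1 in Cd142+ fibroblasts and endothelial cells, 0 to 5 in Dpp4+, 0 to 3 in Icam1+ and 0 to 2 in SMC/pericytes. Between classes, the count for Cd142+ was 20 (thinned) and 30 (stricter gate), for SMC/pericytes 35 (median deviation) and 42 (pericytes only), and for smooth muscle cells 37 (median deviation); thinning was not run for the last. The interaction count was 0 when thinned. Shares without mitochondrial and ribosomal protein genes were 1.47, 1.5, 1.49, 2.3 and 3.2% in Dpp4+, Icam1+, Cd142+, endothelial and SMC/pericytes. As a share of all UMIs, SMC/pericytes were at 2.27% (median deviation) and 2.93% (20% limit).

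Pericytes numbered 41 to 133 cells a library, which limits what could be called in them.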

Other observations

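Cox6a2 UMIs were concentrated in the residual immune cells, with 1, 35 and 28 UMIs in the young TN, 3D cold and 14D cold libraries and 0, 21 and 0 in the aged. Those cells numbered 28 to 71 per library. Dpp4+ fibroblasts held 3 of its 96 UMIs and Icam1+ preadipocytes 1.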
